A study of Homo sapiens with 4 samples.

Results

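The mRNA decay and microRNA machinery was examined in the list of RNA regions recovered with HuR from MDA-MB-231, an established line of human triple-negative breast cancer. Members were the peaks whose host gene, the gene of the RefSeq transcript named in the annotation of the peak, had a symbol of the ZFP36, CNOT, AGO, TNRC6, PABPC, DCP, EDC, IGF2BP or CPEB families, or was DICER1, DROSHA, TIA1, TIAL1, KHSRP, PUM2, XRN1, XRN2, PAN2 or PAN3. This rule took 149 of 14149 peaks and 28 of 3322 host genes. Of the protein-coding genes in the annotation, 52 had such a symbol, so 24 had no listed peak.

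RNA immunoprecipitation followed by sequencing was done with a mouse antibody against HuR in 2 samples and with mouse IgG in 2 samples. All samples were untreated cultures of this 1 line, grown in DMEM with serum, and libraries were made from total RNA without selecting poly(A) tails. The deposited result was a single list of 347 bp peaks on hg38, with 1 score for each peak and no value for a single sample. HuR and IgG, and replicates, could therefore not be compared at any gene, and the values below carry counting intervals in place of SDs. The samples were bulk lysates, so fewer cells holding a bound transcript and less of it in each cell cannot be told apart, and the list gives no expression level with which the cell line or an unlisted gene could be checked.

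Most mRNAs are degraded after their poly(A) tail has been shortened by the CCR4-NOT and PAN2-PAN3 deadenylases, the cap has been removed by DCP2 with DCP1, and the body has been digested by the exonuclease XRN1. Proteins that bind AU-rich elements, such as the ZFP36 family, and microRNAs, which are cut out by DROSHA and DICER1 and carried by Argonaute proteins, bring these enzymes to chosen mRNAs, for the microRNAs through TNRC6 proteins. HuR, encoded by ELAVL1, binds AU-rich and U-rich RNA and is best known for stabilising its target mRNAs.

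Windows of 30 bases from 3′-UTR peaks are shown first, because the AU-rich and U-rich letters that HuR is known to bind can be read in them. From each of 6 genes, the window with the most copies of ATTTA, the core of AU-rich elements, was taken from its highest peak lying wholly in the 3′-UTR, with ties decided by the number of T. Letters are those of the sense strand of the hg38 genome from 5′ to 3′, and capitals mark ATTTA or a run of 5 or more T.
ZFP36L1: catattttgtcagtagatgccTTTTTTTTT
CNOT9: tgctttcccTTTTTgaacttcccttctatt
CPEB4: TTTTTTTTcttttctcctgaactacatgat
PAN3: gtctgggaacTTTTTgaaaATTTAatttgt
TIAL1: tgtaccaATTTAtaattggatattcagttt
CNOT8: gtctttaaaaagctagagtggttacATTTA
The ZFP36L1 window lay at chr14:68789230-68789259 on the − strand, and its peak had a score of 391.8. The CNOT9 window lay at chr2:218595082-218595111 on the + strand under a peak of 232.2, and the CPEB4 window at chr5:173958005-173958034 on the + strand under a peak of 143.2. In these 3 windows ATTTA was absent, and runs of T were the marked letters. The PAN3 window was found at chr13:28294532-28294561 on the + strand (peak score 96.4), the TIAL1 window at chr10:119574373-119574402 on the − strand (73.4) and the CNOT8 window at chr5:154876407-154876436 on the + strand (29.9). Each of these held 1 copy of ATTTA.

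Over all 18 member peaks that lay wholly in a 3′-UTR, from 10 genes, ATTTA was found on the sense strand in 9, or 50% (Wilson 95% interval 29 to 71.0%), against 54.1% of the 2060 such peaks in the whole list. The heptamer TATTTAT, which contains ATTTA, was found in 0 of 18 (upper limit 17.6%) against 8.25% in the whole list. A run of TTTTT was found in 17 of 18, or 94.4% (74.2 to 99.0%), against 78.7%. The 5 highest of these peaks, which belonged to only 3 genes, ZFP36L1, CNOT9 and CPEB4, held 0 copies of ATTTA. Of these, 3 were from CNOT9, whose whole 2807 nt 3′-UTR held 0. The next peak, in CNOT7 with a score of 137.3, held 1 copy. The interval for ATTTA included the share of the whole list, so with 18 peaks no difference could be seen, and a match of letters does not show a binding site. Peaks on opposite strands overlapped in CNOT9, CPEB4, PAN3, TNRC6A and CPEB3, and both were read on the sense strand. Part of the same sequence was thus counted more than once. The intervals treat the 18 peaks as independent and were not adjusted for this overlap.

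Genes of this machinery were often in the list. With 28 of 52 genes listed, the share was 53.8% (40.5 to 66.7%), whereas 15.4% of all 20056 protein-coding genes had a listed peak. In 14 of the 52 genes (26.9%) the highest peak reached the list median of 34, against 7.79% of all protein-coding genes. In 6 genes (11.5%) it reached the upper quartile of 83.4, against 3.85%. A peak annotated in the 3′-UTR was present in 9 genes (17.3%), against 6.1%.

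The length of the transcript moved with this share. The median canonical transcript was 6599.5 nt in the 28 listed members and 3445 nt in the 24 others, and over all protein-coding genes it was 4768 nt with a peak and 2625 nt without. Among transcripts of 6 kb or more, 16 of 19 members (84.2%, 62.4 to 94.5%) were listed, compared with 34.1% of all protein-coding genes of that length. From 3 to 6 kb, the numbers were 9 of 23 members (39.1%, 22.2 to 59.2%) and 22.7% of all genes. Below 3 kb, they were 3 of 10 members (30%, 10.8 to 60.3%) and 6.13%. The interval of the members stayed above the share of all genes in the longest and shortest classes and included it, at its lower end, in the middle class. The part of transcript length in the share of listed members was not tested.

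**Figure D1:**
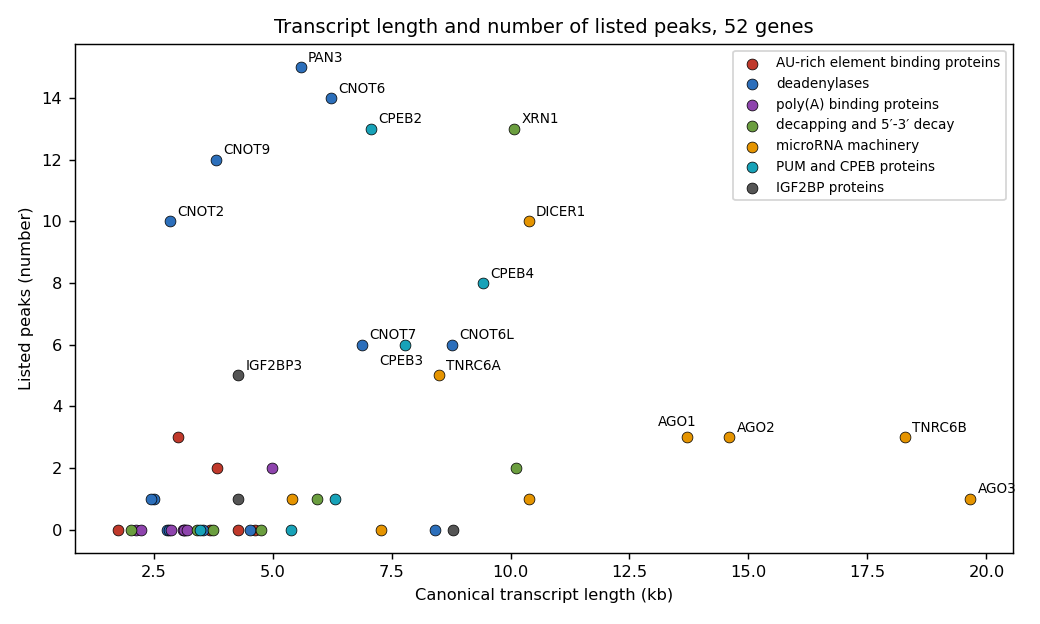
Each point is 1 of the 52 genes, with the length of its canonical transcript in kb on the x axis and its number of listed peaks on the y axis, coloured by role. PAN3 had the most peaks, 15, on a transcript of 5590 nt, while AGO3, the longest at 19660 nt, had 1.

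A score of 1 peak is HOMER's own value and not an enrichment over IgG. The 149 scores ranged from 8.81 to 415.3 with a median of 29.9 (order-statistic 95% interval 24.2 to 39.6), against 34 for the whole list. At or above the list median lay 66 peaks (44.3%, 36.6 to 52.3%), and 28 (18.8%) were at or above the upper quartile. By gene, the median of the highest score was 38.3 in the members and 34 in all 3322 genes, and the median number of peaks was 3 and 2. The list thus held many members with moderate scores. The 3 peaks among the first 1000 of the list all belonged to ZFP36L1, and without ZFP36L1 and CNOT9 the median of the members was 26.3.

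**Figure D2:**
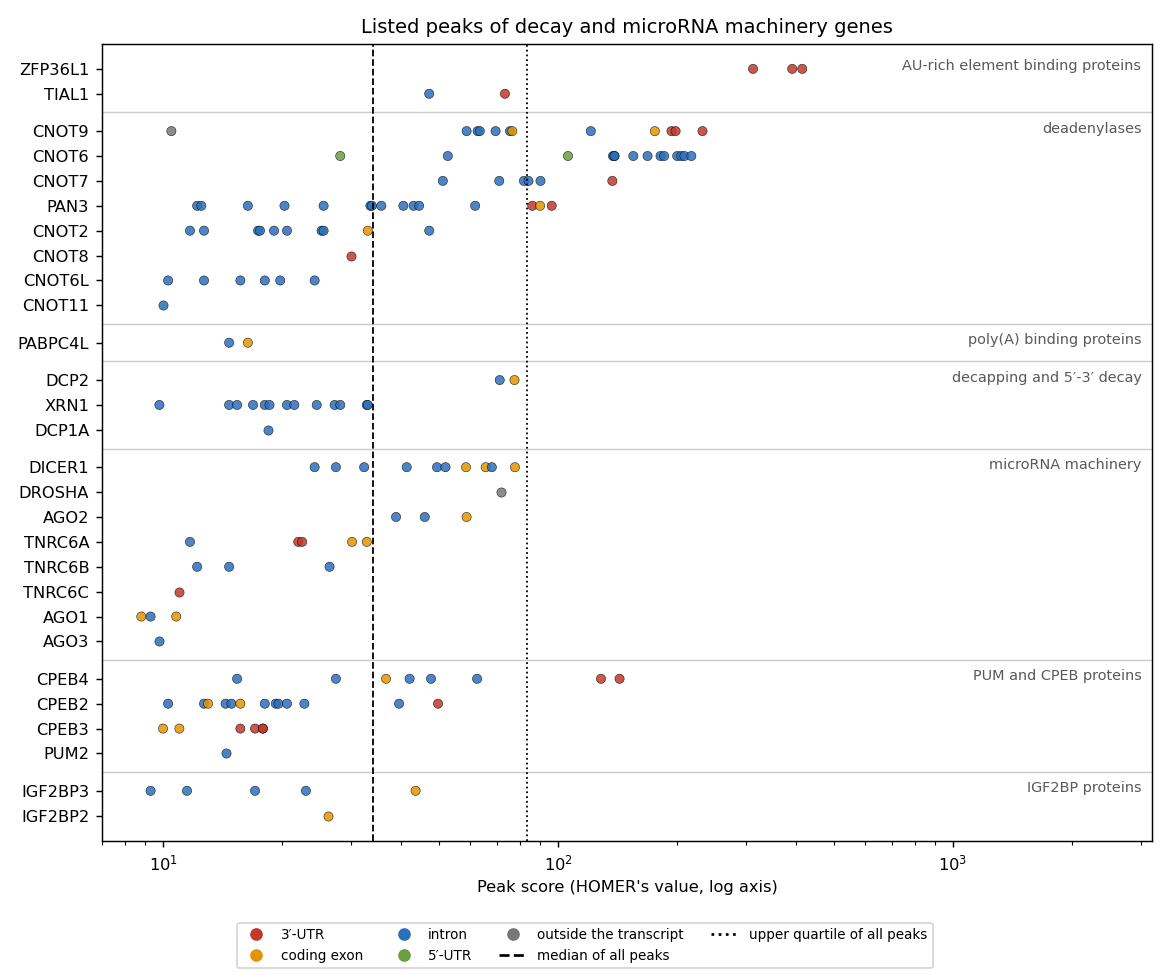
Every listed peak of the 28 genes is drawn by its score on a log axis, with genes grouped by role and points coloured by the place of the peak centre in the canonical transcript. ZFP36L1 stands at the right with 311.8 to 415.3, while all XRN1 peaks lie left of the dashed list median of 34.

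Among the AU-rich element binding proteins, 2 of 6 genes were listed (33.3%, 9.68 to 70.0%), against 15.4% of all protein-coding genes. Of all members, ZFP36L1 had the highest scores. ZFP36L1 recruits deadenylases to AU-rich mRNAs. Its 3 peaks had scores of 415.3, 391.8 and 311.8, and all were annotated in the 3′-UTR, exon 3 of 3 of the deposited transcript. The first, chr14:68789335-68789681, had an exact Poisson 95% interval of 395.7 to 435.5 and was number 612 of the list, and ZFP36L1 was number 164 of 3322 genes. The first and second peaks overlapped on opposite strands and had intervals that overlapped (372.8 to 411.4 for the second), while the third, at 294.9 to 329.3, was lower. The 3′-UTR of ZFP36L1 is 1874 nt long and holds 8 copies of ATTTA. Its paralogues ZFP36 and ZFP36L2 were not listed, although their 3′-UTRs of 711 and 1920 nt hold 5 copies each.

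TIAL1, a translational repressor that also acts in splicing, had a score of 73.4 (65.3 to 82.2) in the last exon, which is 3′-UTR in the canonical transcript and non-coding in the deposited one. A second TIAL1 peak in intron 2 had a score of 47.2 (40.8 to 54.4). Its close relative TIA1 and KHSRP, another decay-promoting protein, had no listed peak.

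Deadenylase genes held the largest part of the peaks, 65 of 149, in 8 of 13 genes, with a median score of 52.6. The share of listed genes was 61.5% (35.5 to 82.3%), against 15.4% of all protein-coding genes. At or above the list median lay 39 of the 65. The genes differed, with median scores of 161.85 in CNOT6, 83.1 in CNOT7, 76.1 in CNOT9 and 35.7 in PAN3. Below the list median were those of CNOT8 (29.9), CNOT2 (19.85), CNOT6L (16.9) and CNOT11 (10.0). CNOT9, CNOT6, CNOT7 and PAN3 reached the upper quartile of the list, and CNOT1, CNOT3, CNOT4, CNOT10 and PAN2 were not listed. CNOT1, the scaffold of the CCR4-NOT complex, was thus without a peak on its transcript of 8411 nt. Of all protein-coding genes of 6 kb or more, 34.1% were listed.

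CNOT9, a subunit that contacts TNRC6 proteins, had 12 peaks with scores from 10.5 to 232.2. The 3 in the 3′-UTR of the canonical transcript had scores of 232.2, 198.5 and 193.8, and the one at the end of the coding sequence had 175.9. The other 8 lay between 10.5 and 121.1. The peak of 10.5, with a focus ratio of 0.918, lay before the CNOT9 transcript, with its centre 483 bp from the nearest annotated CNOT9 exon. It overlapped an exon of the neighbouring coding gene USP37, which the gene column names, so it is not shown to come from CNOT9 RNA. The highest, chr2:218594870-218595216 on the + strand, had an interval of 217.7 to 247.5, and the deposited annotation called it non-coding, exon 7 of 7. The deposited gene column gave PLCD4 for the 3 peaks in the 3′-UTR and the one at the end of the coding sequence.

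CNOT6, a catalytic deadenylase, had 14 peaks with scores from 28.1 to 217.6 and a median of 161.85. They formed 7 loci, each with 1 peak on the − strand and 1 on the + strand. The highest, chr5:180550019-180550365, had an interval of 203.5 to 232.3, was annotated in intron 5 of 13 and lay 75 bp from canonical exon 3. In the CNOT6 transcript, peaks stood beside the exons of the coding sequence and in the 5′-UTR, with 0 in the 3′-UTR, although that is 4161 nt long and holds 17 copies of ATTTA. Its paralogue CNOT6L had 6 peaks, all intronic, with scores from 10.3 to 24.2. The intervals of the highest CNOT6 and CNOT6L peaks (19.7 to 29.5 for CNOT6L) were far apart.

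CNOT7, a second catalytic deadenylase, had a 3′-UTR peak with a score of 137.3 (126.2 to 149.1) and 5 intronic peaks from 51.1 to 90.3. The paralogue CNOT8 had 1 peak, in the 3′-UTR, with a score of 29.9 (24.8 to 35.6). The 2 pairs of paralogues CNOT6 and CNOT6L, and CNOT7 and CNOT8, were thus each listed with 1 higher and 1 lower gene.

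PAN3, which brings the PAN2 nuclease to poly(A), had 15 peaks, the most of any member. Its 3 highest scores, 96.4 (87.1 to 106.4), 90.1 and 86.1, were in the last exon, of which 96.4 at chr13:28294494-28294840 and 86.1 were in the 3′-UTR. The 12 intronic peaks ranged from 12.2 to 61.7. CNOT2, a subunit of the NOT module, had 10 peaks from 11.7 to 47.2, of which 9 were intronic. CNOT11 had 1 intronic peak with a score of 10.0 (7.2 to 13.6).

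**Figure D3:**
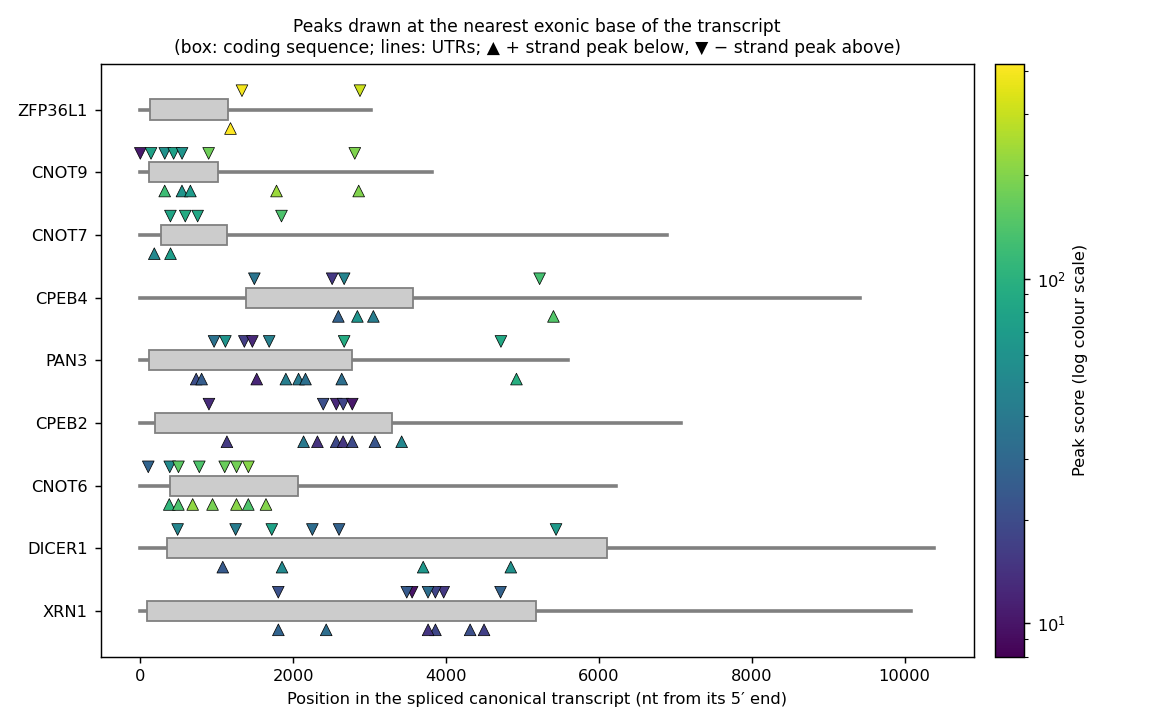
Peaks of 9 genes are drawn along the spliced canonical transcript in nt from its 5′ end, with intronic peaks placed at the nearest exonic base and colours giving the score on a log scale. Peaks of CNOT6, DICER1 and XRN1 all stand before the 3′-UTR, whereas the highest peaks of CNOT9, CNOT7, CPEB4 and PAN3 lie in the 3′-UTR.

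Of the poly(A) binding protein genes, 1 of 8 was listed (12.5%, 2.24 to 47.1%), against 15.4% of all protein-coding genes. PABPC4L had 2 peaks with scores of 16.4 and 14.7. PABPC1, the main cytoplasmic poly(A) binding protein, PABPC1L, PABPC1L2A, PABPC1L2B, PABPC3, PABPC4 and PABPC5 had none. The annotation also holds 13 pseudogenes of PABPC1, and how reads matching several places were treated is not given in the sources used here, so the absence of PABPC1 and of its near copies is uncertain.

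In the decapping and 5′-3′ decay group, 3 of 7 genes were listed with 16 peaks and a median of 21.05. The share of listed genes was 42.9% (15.8 to 74.95%), against 15.4% of all protein-coding genes. The lower limit of this interval was close to the share of all genes. DCP2, the decapping enzyme, had 2 peaks with scores of 77.6 (69.3 to 86.6) and 71.2 (63.3 to 79.9), and its cofactor DCP1A had 1 of 18.4. XRN1 had 13 peaks, all intronic, from 9.79 to 33.0. None of the XRN1 peaks reached the list median, so this gene was marked by many low peaks. DCP1B, EDC3, EDC4 and XRN2, the nuclear relative of XRN1, were not listed by transcript.

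Of the microRNA machinery, 8 of 9 genes were listed, with 27 peaks and a median score of 30.1. The share of listed genes was 88.9% (56.5 to 98.0%), against 15.4% of all protein-coding genes. It counts DROSHA, whose only peak lay outside its transcript. DICER1, which cuts the precursor hairpin, had 10 peaks from 24.2 to 77.8, of which 3 were in exons and 7 in introns. Its highest, chr14:95124023-95124369, had an interval of 69.5 to 86.9. DROSHA, which makes the first cut in the nucleus, had 1 peak with a score of 71.9 (64.0 to 80.7), placed at its promoter with a focus ratio of 0.828. This peak lay outside the canonical DROSHA transcript, with its centre 349 bp from the nearest annotated DROSHA exon. It overlapped an exon of the neighbouring coding gene C5orf22, which the gene column names, so it is not shown to come from DROSHA RNA.

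The Argonaute genes differed in score. AGO2, the Argonaute that can cut its target, had 3 peaks with scores of 58.7 (51.5 to 66.6), 46.0 and 38.9. AGO1 had 3 peaks of 10.8, 9.30 and 8.81, and AGO3 had 1 of 9.79 (6.99 to 13.3). All AGO2 peaks were above all AGO1 and AGO3 peaks, and the lowest AGO2 interval began at 33.1. AGO4 was not listed.

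TNRC6A, TNRC6B and TNRC6C, which link Argonaute to deadenylases, were all listed with low scores. TNRC6A had 5 peaks from 11.7 to 32.8, TNRC6B 3 from 12.2 to 26.4 and TNRC6C 1 of 11.0 in the 3′-UTR. The highest of TNRC6A and TNRC6B had overlapping intervals (27.5 to 38.8 and 21.7 to 31.9), so they could not be ranked.

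Among the PUM and CPEB proteins, which control poly(A) tail length and translation from sites in 3′-UTRs, 4 genes were listed with 28 peaks. This was 66.7% of 6 genes (30 to 90.3%), against 15.4% of all protein-coding genes. CPEB4 had 8 peaks, of which the 2 in the 3′-UTR had scores of 143.2 (131.8 to 155.2, chr5:173957795-173958141) and 128.5, and the other 6 lay between 15.4 and 62.4. CPEB2 had 13 peaks from 10.3 to 49.7, and its highest was at the start of the 3′-UTR. CPEB3 had 4 peaks of 15.7 to 17.9 in the 3′-UTR and 2 of 10.0 and 11.0 in exon 2. PUM2 had 1 intronic peak of 14.4, and CPEB1 was not listed.

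IGF2BP proteins stabilise mRNAs and promote their translation. Of their genes, 2 of 3 were listed (66.7%, 20.8 to 93.9%), against 15.4% of all protein-coding genes. IGF2BP3 had 5 peaks from 9.30 to 43.6, and its highest (37.4 to 50.4) was in the last exon, 15 of 15. IGF2BP2 had 1 peak of 26.2 (21.5 to 31.9), also in exon 15 of 15 of the deposited transcript. IGF2BP1 had no listed peak.

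Several families were thus split between listed and unlisted paralogues, such as ZFP36L1 with ZFP36 and ZFP36L2, TIAL1 with TIA1, DCP1A with DCP1B, and XRN1 with XRN2. Of the PAN2-PAN3 complex, PAN3 was listed and PAN2 was not.

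At their centres most of the peaks were intronic. The deposited annotation placed 103 of 149 in introns, or 69.1% (61.3 to 76.0%), against 61.9% of the whole list. It placed 17 in 3′-UTRs, or 11.4% (7.25 to 17.5%), against 14.6%, and 19 in exons, or 12.8%, against 12.6%. The intervals for introns, 3′-UTRs and exons all included the value of the whole list. In 7 listed genes all peaks were annotated in introns, and the highest peak of a gene was intronic in 9 genes, in a 3′-UTR in 8, in an exon in 7, in a non-coding exon in 3 and at a promoter in 1.

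These intronic peaks stood next to exons. The median distance from the centre to the nearest canonical exon was 98 bp, and 101 of 103 (98.1%) lay within 347 bp. For all 101, the exon was behind the peak, that is on the left of + peaks and on the right of − peaks, as for 99.6% of such peaks in the whole list. Moved back by 173 bp against their own strand, 78 of the 103 fell in an exon. The 2 exceptions were a CPEB4 peak with a score of 27.4 and a focus ratio of 0.974, and the PUM2 peak, both over 1000 bp from a canonical exon but near an exon of another transcript.

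**Figure D4:**
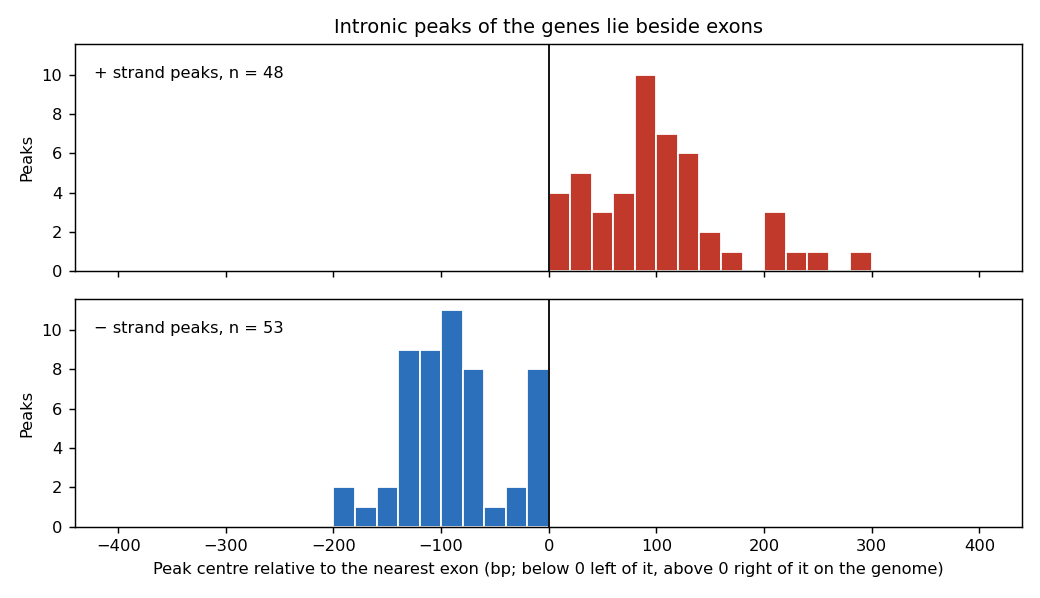
The distance in bp of the 101 intronic peak centres within 347 bp of an exon from that exon is shown for + strand peaks (48, top) and − strand peaks (53, bottom) as numbers of peaks per 20 bp. All + peaks shown lie to the right of the exon and all − peaks to the left, with a median distance of 98 bp over all 103 intronic peaks.

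Moved back in this way, 20.1% of the 149 peaks were in introns, 60.4% in coding exons and 16.1% in 3′-UTRs, against 20.2%, 53.2% and 18.7% in the whole list. The moved peaks touched 86 of 441 canonical exons of the listed genes. Per kb of sequence, the listed members had 0.292 peaks in coding exons and 0.153 in 3′-UTRs at the centre, and 1.25 and 0.174 when moved back. In the whole list these densities were 0.268 and 0.248 at the centre, and 1.09 and 0.272 when moved back. Both placements therefore gave the members fewer peaks per kb of 3′-UTR than of coding exon.

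**Figure D5:**
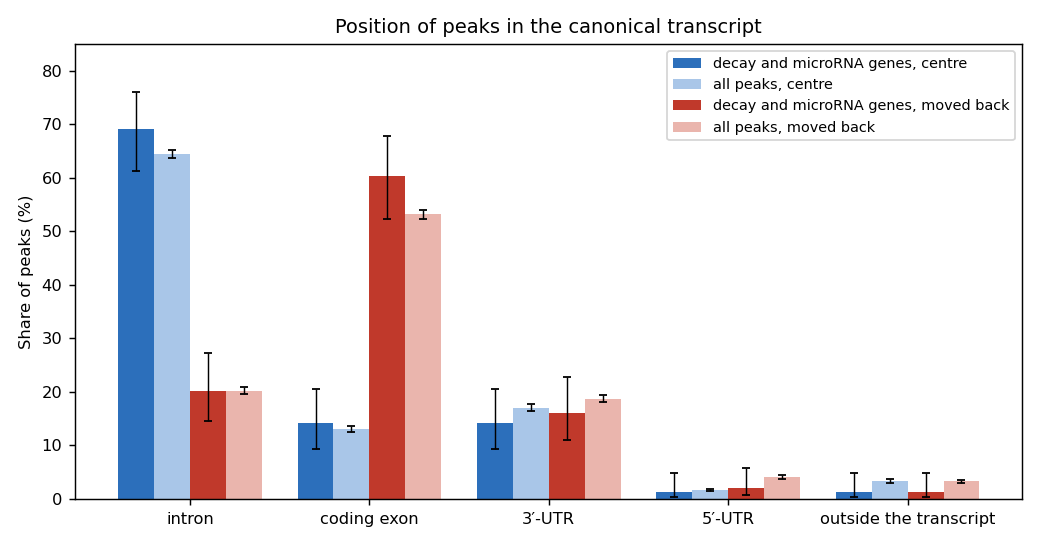
Shares of peaks in % by region of the canonical transcript, for the 149 peaks of these genes and for all peaks, at the centre (blue) and moved back by 173 bp (red), with Wilson 95% intervals as bars. The intronic share of these genes is 69.1% at the centre and 20.1% when moved back, and the coding exon share is 60.4% when moved back.

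Scores in the 3′-UTR were also compared with those elsewhere in the same gene. Of 8 members with peaks both in the canonical 3′-UTR and elsewhere, the best 3′-UTR peak was higher than the best other peak in 7 (87.5%, 52.9 to 97.8%), namely CNOT7, CNOT9, CPEB2, CPEB3, CPEB4, PAN3 and TIAL1, against 704 of 1072 genes (65.7%) in the whole list. The exception was TNRC6A, with 22.5 in the 3′-UTR and 32.8 elsewhere. Every 3′-UTR peak was above every other peak in 6 of the 8 (75%, 40.9 to 92.9%), against 56.25%, since in PAN3 the exonic peak of 90.1 was above the 3′-UTR peak of 86.1. Both intervals included the share of the whole list. The comparison used the place of the peak centre only. When moved back, the CPEB2 peak of 49.7 lay in a coding exon. The PAN3 peak of 90.1 and the CNOT9 peak of 175.9 then lay in the 3′-UTR.

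The 3′-UTR was 2816 nt long in the median of the 11 members with a peak there, with a range from 1356 nt in CNOT8 to 5846 nt in CPEB4. In the 17 members with peaks elsewhere only, the median was 4161 nt and the range ran from 906 nt in CNOT11 to 16758 nt in AGO3, so the lengths overlapped. AGO3, TNRC6B, AGO2 and AGO1, whose 3′-UTRs of 16758, 12570, 11891 and 10928 nt were the longest of the listed members, had 0 peaks there.

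Peaks lay on both strands of the genes. The peak and the gene were on the same strand for 78 of 149 peaks, or 52.3% (44.4 to 60.2%), against 53.2% in the whole list. In 3′-UTRs this held for 11 of 17 member peaks, or 64.7% (41.3 to 82.7%), against 59.0% of 2054 in the whole list. Each interval included the whole-list value. Of 77 peaks on the − strand, 37 had a + peak of the same gene within 1000 bp, and the + peak was on the right in 34, with a median offset of 328 bp. Such pairs occurred in 14 genes, and merging overlapping peaks left 121 loci.

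The gene column of the list, which names the gene with the nearest transcription start, gave another gene for 71 of the 149 peaks, or 47.7% (39.8 to 55.6%), against 41.3% of the whole list. All 15 PAN3 peaks were named PAN3-AS1 there and all 10 CNOT2 peaks KCNMB4. By that column EDC4 would be listed with 6 peaks of 174.5 to 1216.2, but these lie on the transcript of its neighbour NUTF2. AGO2, CNOT2, DROSHA, IGF2BP2, IGF2BP3 and TNRC6C would be missed.

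Other genes of these pathways, taken from a list of 73, had a peak in 23 cases, with 103 peaks. This was 31.5%, against 15.4% of all protein-coding genes. For decapping cofactors the number was 5 of 16 (31.25%), led by DDX6, a helicase of decapping and microRNA silencing, with a highest score of 284.1. Nonsense-mediated decay had 4 of 10 genes (40%), among them UPF2 at 39.2. Further microRNA factors also had 4 of 10 (40%), at most 24.2 for TUT4. The exosome and SKI genes, which degrade RNA from the 3′ end, had 2 of 17 (11.8%), DIS3L at 10.5 and HBS1L at 46.7, against 15.4% of all protein-coding genes.

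Among the further deadenylation genes, 2 of 6 were listed (33.3%), TOB1 at 107.9 and TOB2 at 49.9. In the group of other binding proteins, 6 of 14 were listed (42.9%). Of all protein-coding genes, 15.4% had a listed peak, and these groups are small. The m6A readers YTHDF2 and YTHDF1 had highest scores of 282.2 and 230.3, FMR1 had 15 peaks up to 168.9, and the Roquin genes RC3H2 and RC3H1 had 8 and 20 peaks up to 167.6 and 67.8. FXR1 had 1 peak of 98.9, and the HuR relatives ELAVL2, ELAVL3 and ELAVL4 had none.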

How the data were processed

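Per the labels, 2 HuR RIP and 2 IgG RIP samples were sequenced. The authors aligned reads with STAR to hg38 and called peaks with HOMER, and the list keeps peaks selected for altered abundance. Versions, thresholds, pooling and the treatment of multiply mapped reads are not given in the sources used here. The deposited peak score is HOMER's value on an unstated scale, and the deposited focus ratio is a fraction. The signed distance to the transcription start, in bp, was deposited too. Library depth is unknown. Of 11121 scores under 100, 98.3% lay on multiples of 0.2447 (within 0.005 below 10 and 0.05 from 10), against 39.3% for evenly spread values. Poisson intervals assume that 1 such step is 1 tag, which the authors do not state, so that the lowest score of 8.32 would be 34 tags. These and Wilson intervals cover counting error only, and Wilson intervals over peaks count overlapping peaks separately.

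Host genes were assigned through RefSeq for 13838 of 13929 peaks with a transcript. The file's own pairing of transcript and gene was used for 54 more, including the 14 of CNOT6. Exons were those of GENCODE 44 canonical transcripts, and coordinates are 1-based. A total of 28 noncoding genes and pseudogenes with a matching symbol were left out of the 52. The members and lists were chosen with earlier results of these data known. Some genes that enter the counts are not reported here by name. All listed members are named, those reaching the upper quartile with the position of their best peak, except where coordinates are not reported here. No test was run, because the list holds no value for a sample. Alternatives were the score limit, merged peaks, the gene column, the place of the peak and other motifs. Functions were tested on simulated data in Python 3.11.15 with numpy 2.4.6, pandas 2.3.3, scipy 1.17.1, pysam 0.24.0 and matplotlib 3.10.9.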

Additional observations from a re-analysis of the deposited data

How the results depend on the processing

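Of 21 alternatives, 15 left the counts within 1.5 times the value given, or the shares and medians within its interval. With scores at or above the list median, 14 genes and 66 peaks remained of 28 and 149. By the gene column there were 23 genes and 111 peaks. With the RefSeq table alone, an alternative chosen after seeing the data, there were 27 genes and 135 peaks, without CNOT6. Merging gave 121 peaks. The intronic share was 20.1% when peaks were moved back. In 3′-UTRs the share on the strand of the gene was 64.7%, against 59.0% in the whole list. In place of 50% for ATTTA, the share was 0% for TATTTAT and 94.4% for 5 T in a row. The cause was not tested. The share in 3′-UTRs ranged from 9.09 to 16.1%. No paired analysis was possible because each peak had 1 value for all samples, so no replicate could be left out either. Without depth or expression, an unlisted gene is not shown to be unbound.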
